A study of Bos taurus with 11 samples.

Results

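The members are the array probes for core, linker and variant histone genes in blood mononuclear cells of cattle. A probe belongs to the set if its description names histone H1, H2, H3 or H4, a histone cluster or a histone family, and does not name an enzyme that modifies histones or a protein that binds them. This held for 84 of the 43653 probes of the array, which carry 52 gene names and were each analysed apart. By family, H1 had 6 probes for canonical and 5 for variant genes, H2A 16 and 16, H2B 26 and 2, H3 3 and 2, and H4 6 and 0. The other 2 probes are for HINFP, a transcription factor of H4 genes that the description rule caught although it is no histone. Variants were told by their description or gene name. Every other histone probe was counted as canonical, also where the files place it outside the histone clusters. The cells came from 11 female cattle, 1 animal for each 1-colour array. Ladakhi cattle, a native breed of the high-altitude Ladakh region, gave 5 arrays, and Sahiwal cattle of the low-lying arid and semi-arid plains, sampled in what the labels call a basal state, gave 6. The question the design addresses is how expression in these cells differs between the high-altitude and the low-altitude breed. Treatment, age and the way the cells were isolated are not given in the labels.

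Histones are the proteins around which DNA is wound. H2A, H2B, H3 and H4 form the core of the nucleosome, and H1 sits on the linker DNA between nucleosomes. Canonical histone genes lie in clusters, occur in many near-identical copies, are transcribed mainly while DNA is copied and give messages that end in a stem-loop in place of a poly(A) tail. Variant genes such as H2AZ1, MACROH2A1 and H3-3B stand alone, are used throughout the cell cycle and give polyadenylated messages. Blood mononuclear cells are mostly resting lymphocytes and monocytes.

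Since canonical copies resemble each other, a probe can take up messages of several genes, and the probe sequences of 4 stretches are given to show this. Each probe is 60 bases long, is printed 5′ to 3′ as the scanner files give it, and is in lower case, with capitals where it differs from the first probe of its stretch within the bases they share. Coordinates are those of the files on the HGSC Btau_3.1 build. The first stretch lies in H3: A_73_P094811 and A_73_P092536 both carry the name H3C13, at chr3:22378055-22378114 and chr3:22378065-22378124, and A_73_P328471 belongs to the replacement variant H3-3B, at chr19:57543547-57543606.
A_73_P094811: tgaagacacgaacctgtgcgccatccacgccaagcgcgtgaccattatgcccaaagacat
A_73_P092536: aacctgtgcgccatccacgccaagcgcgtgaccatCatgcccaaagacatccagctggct
A_73_P328471: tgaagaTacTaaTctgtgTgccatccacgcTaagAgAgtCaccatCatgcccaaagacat
The probes named H3C13 had 49 of 50 shared bases in common. The H3-3B probe matched the first of them at 51 of 60 bases, and 8 of the 9 differences fell on the third base of a codon in its open reading frame.

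The H2B probes that gave most of the higher Ladakhi signals come from a pair of stretches of the gene. In the first stretch, A_73_P052566 (H2BC21, chr3:22264035-22264093) and A_73_P492128 (ENSBTAT00000046019, chr3:22379415-22379474) shared 52 of 57 bases, and all 5 differences fell on the third base of a codon.
A_73_P052566: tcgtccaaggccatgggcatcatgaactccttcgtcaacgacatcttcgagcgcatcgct
A_73_P492128: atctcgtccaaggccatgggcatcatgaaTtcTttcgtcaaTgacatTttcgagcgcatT
In the other stretch the reference is A_73_P059721, which the files name H2B, at chr23:7417431-7417490. A_73_P493458 (LOC523702, chr9:8762351-8762410) matched it at 44 of 48 bases, A_73_P490198 (LOC520044, chr15:61722524-61722583, minus strand) at 52 of 56, and A_73_P077386 (LOC617043, chr12:55124188-55124247) at 51 of 56.
A_73_P059721: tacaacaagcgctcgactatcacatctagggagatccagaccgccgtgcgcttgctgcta
A_73_P493458: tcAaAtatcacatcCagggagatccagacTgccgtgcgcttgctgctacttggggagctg
A_73_P490198: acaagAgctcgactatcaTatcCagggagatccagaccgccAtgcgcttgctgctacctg
A_73_P077386: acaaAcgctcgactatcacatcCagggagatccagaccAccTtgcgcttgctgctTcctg

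The H2A stretch is shown because probes of 1 gene overlap there and yet differ in their breed comparison. A_73_P165502, A_73_P062706 and A_73_P062661 start at chr23:31057831, chr23:31057837 and chr23:31057863 and all carry the name H2AC14. They were identical over the bases they share with the first, 54 of 54 and 28 of 28. A_73_116123 (LOC521825, chr23:32262444-32262503, minus strand) matched the first at 49 of 60 bases.
A_73_P165502: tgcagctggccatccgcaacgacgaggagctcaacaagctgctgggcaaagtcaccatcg
A_73_P062706: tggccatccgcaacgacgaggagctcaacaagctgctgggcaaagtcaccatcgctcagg
A_73_P062661: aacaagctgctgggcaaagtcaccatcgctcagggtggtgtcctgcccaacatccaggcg
A_73_116123: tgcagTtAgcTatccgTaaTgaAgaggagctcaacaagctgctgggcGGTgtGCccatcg
A near copy was taken as another histone probe, at another place and under another name, that matches at 80% or more over at least 40 bases, among 111 histone probes compared. By this measure 21 of the 57 canonical probes and 0 of the 25 variant probes had one. The median GC content was 45% in canonical and 40% in variant probes, against 45% over all probes, and it was 55% in the canonical probes with a near copy.

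The breeds also differ in how they were measured. Each slide held a single breed, the breeds were read on different scanners with different extraction software, and the Ladakhi arrays were dimmer, so that breed and measurement cannot be told apart. Between 4243 and 6608 of 43803 spots lay well above background on the Ladakhi arrays and between 17517 and 20574 on the Sahiwal arrays. Sahiwal animals 4 and 6 stood apart from the other Sahiwal animals in granulocyte genes, with 8 of 9 markers above background against 1 to 4, and results that rest on them are given with and without them. Levels are log2 processed signals minus a reference of each array, the 75th percentile of the 2578 probes that all 11 arrays detected. A probe is called measured in a breed where it lay well above background on at least 4 of its arrays. The lowest signal well above background averaged -3.67 on this scale in Ladakhi and -8.12 in Sahiwal, so a probe under the Ladakhi limit could be measured there only if it was higher than in Sahiwal.

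In Sahiwal, 54 of the 84 histone probes (64.3%) were measured, against 40.9% of all probes. In Ladakhi 18 of them (21.4%) were measured, against 9.28% of all probes, and these 18 were measured in Sahiwal too. Another 15 lay above background on 1 to 3 Ladakhi arrays and 21 on none, while 30 were measured in neither breed and 21 of the 84 were above background on no array. Canonical and variant genes were detected to a like degree in Sahiwal, with 37 of 57 and 16 of 25 probes, and in Ladakhi 10 and 8 were measured. Within Sahiwal, 14 of 16 probes for H2A variants were measured, 20 of 26 for canonical H2B and 10 of 16 for canonical H2A. Canonical H1 had 3 of 6, H3 2 of 3 and H4 2 of 6, while the probes for H2B variants and H3 variants in the set were measured in neither breed. The position given in the files was on chromosome 23 for 33 probes, all canonical, of which 19 were measured in Sahiwal, and on chromosome 3 for 9 canonical probes, all measured in Sahiwal. The set held no saturated spot.

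In the main scaling, signals of histone probes differed between the Ladakhi and Sahiwal arrays in both directions. Of the 18 histone probes measured in both breeds, 11 (61.1%) passed an adjusted p of 0.05 in limma, against 33% of all 4034 probes measured in both. Linker histone H1FX, the damage-marking variant H2AX and 4 canonical H2A and H2B probes were higher in Ladakhi. Probes named MACROH2A1, H2AZ2, H2BC8, H2BC21 (A_73_104621) and H3C13 were lower. The signal of the H2BC8 probe is not shown to come from that gene alone. These 6 higher probes compare with 17.9% of all measured probes and the 5 lower ones with 15.1%. The filter weighs on this contrast, since the Sahiwal mean lay above the mean Ladakhi limit in 15 of the 18 and in 3789 of the 4034. LOC523702, H2B A_73_P059721 and ENSBTAT00000046019 lay under it and could be measured in Ladakhi only if higher. The first and second of these are among the higher calls. The values of the breeds did not overlap in 7 of the 18, against 21.5% of all, and the median difference was 0.12, against -0.03 over all. The balance of the directions rests on the scaling between arrays. With quantile normalization and with cyclic loess, which move the median over all measured probes to 0.17 and 0.41, 6 probes were higher and 1, H2BC8, was lower. Over all measured probes the balance moved the same way, to 25.8% higher and 8.53% lower with quantile normalization and to 28.7% and 4.64% with cyclic loess. In bulk samples fewer cells of a type and less RNA per cell cannot be told apart, and the p-values measure the spread between these animals.

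**Figure D1:**
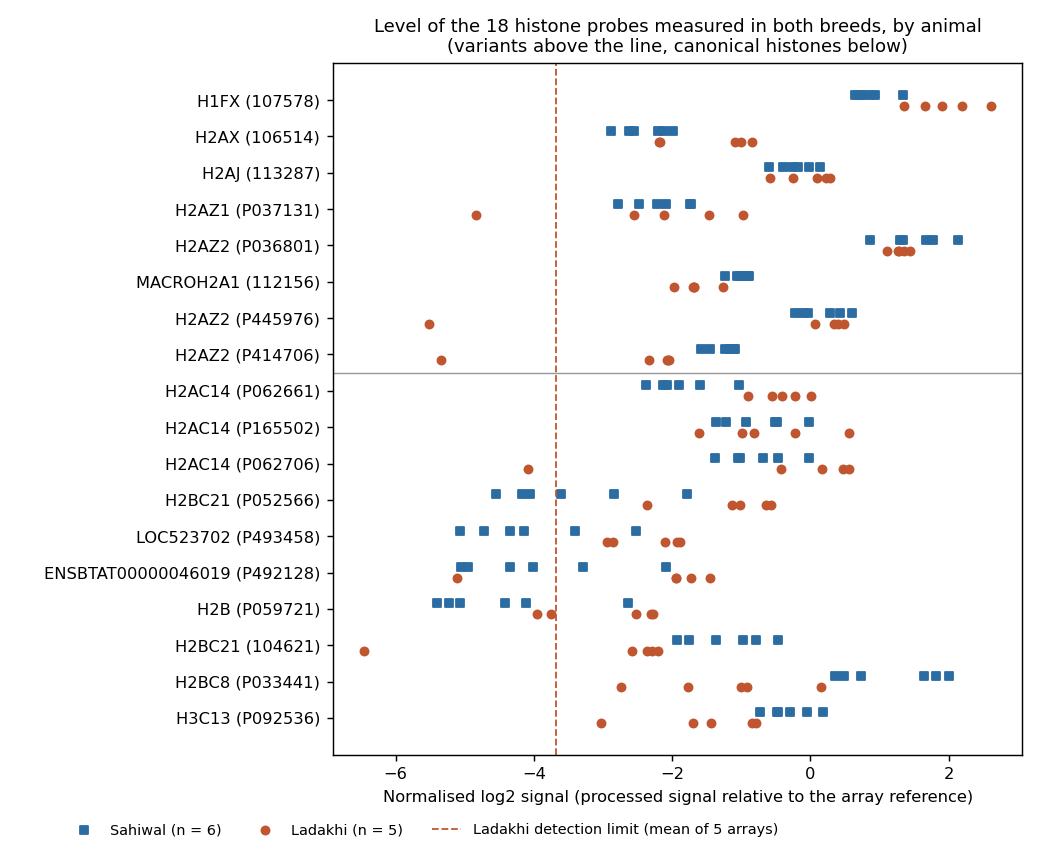
Normalised log2 signal (x axis, relative to the array reference) of each of the 18 histone probes measured in both breeds, with 1 point per animal, squares for the 6 Sahiwal and circles for the 5 Ladakhi animals. The dashed line is the mean Ladakhi detection limit of -3.67. The Sahiwal values of LOC523702 and H2B A_73_P059721 lie mostly to its left, and single Ladakhi points far to the left, as in H2AZ2 A_73_P445976, are signals not well above background.

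Among the variants, H1FX, a linker histone made independently of DNA replication, was higher in Ladakhi. Its levels at chr22:60978193-60978252 were 1.90, 1.66, 1.36, 2.61 and 2.19 in Ladakhi animals 1 to 5, and 0.65 at the lowest, 0.80 at the median and 1.34 at the highest in Sahiwal. Every Ladakhi animal lay above every Sahiwal animal, though the lowest Ladakhi and the highest Sahiwal value were close. The difference was 1.07 (SE 0.28, adjusted p = 0.00822), a 2.10-fold higher signal in Ladakhi. The Ladakhi mean was 1.94 ± 0.48 (SD, n = 5) and the Sahiwal mean 0.87 ± 0.25 (SD, n = 6). The H1FX probe had a GC content of 86.7%, against a median of 40% in the variant probes. Whether this affected its signal in either breed was not tested. H2AX, the H2A form that is phosphorylated beside DNA breaks, had -2.18, -2.18, -0.85, -1.01 and -1.09 in the Ladakhi animals and -2.89, -2.38 and -1.98 at the lowest, median and highest in Sahiwal. Ladakhi animals 1 and 2 lay within the Sahiwal range and the other 3 above it. The difference of 0.93 (SE 0.33, adjusted p = 0.0338) passed the test, and another H2AX probe, A_73_P266906, was not well above background on any Ladakhi array. The call was lost without any 1 of Ladakhi animals 3, 4 and 5 or Sahiwal animals 4, 5 and 6, with differences from 0.78 to 0.90 and adjusted p from 0.0592 to 0.0765, with the animal number as a block (adjusted p = 0.0922), and without Sahiwal animals 4 and 6 together (0.83, adjusted p = 0.112). It was also lost with scaling by the 75th percentile of all probes (adjusted p = 0.0632) and in the authors' deposited values (adjusted p = 0.0629).

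MACROH2A1, an H2A variant with a large extra domain that is enriched on silent chromatin, was lower in Ladakhi at A_73_112156. Its Ladakhi levels were -1.98, -1.70, -1.68, -1.26 and -1.68, and the Sahiwal levels ran from -1.23 over a median of -0.99 to -0.89. The groups did not overlap, and Ladakhi animal 4 came closest to the Sahiwal range. The difference was -0.65 (SE 0.24, adjusted p = 0.0392), 1.57-fold lower in Ladakhi. The call was near the threshold. It was lost without any 1 of 9 animals, namely Ladakhi 1, 2, 3 and 5 and Sahiwal 1, 2, 3, 4 and 6, with differences from -0.66 to -0.57 and adjusted p from 0.0523 to 0.0906, with the block (adjusted p = 0.128), and without Sahiwal animals 4 and 6 together (adjusted p = 0.114). The authors' deposited values gave -0.65 (adjusted p = 0.0509), quantile normalization -0.38 (adjusted p = 0.119), cyclic loess -0.19 (adjusted p = 0.651) and normexp background correction -0.19 (adjusted p = 0.353). Of its other probes, A_73_P351851 was not well above background on any Ladakhi array and was at least 1.28-fold lower there, a bound from the mean detection limit, A_73_P335516 was not well above background on any Ladakhi array either, and A_73_P252976 was above it on 1 Ladakhi array.

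H2AZ1 and H2AZ2 encode the closely related H2A.Z variants, which mark promoters and enhancers. The H2AZ2 probes disagreed. A_73_P414706 had -2.33, -2.07, -5.35, -2.06 and -2.04 in Ladakhi, with animal 3 not well above background, and -1.58, -1.20 and -1.09 at the lowest, median and highest in Sahiwal. All Ladakhi animals lay below all Sahiwal animals, and the difference was -1.50 (SE 0.51, adjusted p = 0.0302). That call was lost without Sahiwal animal 2 (-1.47, adjusted p = 0.0522), without Sahiwal animal 3 (-1.47, adjusted p = 0.0512) and without Sahiwal animals 4 and 6 together (-1.62, adjusted p = 0.0556), and also with quantile normalization (-1.16, adjusted p = 0.0942) and cyclic loess (-1.04, adjusted p = 0.191). It passed at -0.86 (adjusted p = 0.0138) when Ladakhi animal 3 was left out and at -0.92 (adjusted p = 0.0282) with normexp. A_73_P036801 lay on every array, where Ladakhi averaged 1.29 ± 0.12 (SD, n = 5) and Sahiwal 1.51 ± 0.45 (SD, n = 6), and its difference of -0.22 (SE 0.27, adjusted p = 0.534) did not pass. A_73_P445976 differed by -1.0 (SE 0.87, adjusted p = 0.372), with 4 Ladakhi values between 0.07 and 0.48 inside the Sahiwal range of -0.22 to 0.60 and animal 1 at -5.52, not well above background. Without that animal its difference was 0.17 (adjusted p = 0.66). The H2AZ1 probe A_73_P037131 gave -0.22 (SE 0.54, adjusted p = 0.771), and H2AJ, an H2A form with a variant tail, gave 0.17 (SE 0.26, adjusted p = 0.626). The sign of the H2AZ1 difference turned to 0.39 without Ladakhi animal 2, which was not well above background.

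The canonical H2A gene measured in both breeds was H2AC14, through the overlapping probes printed above. A_73_P062661 had 0.01, -0.22, -0.56, -0.41 and -0.90 in the Ladakhi animals, and -2.37, -1.98 and -1.03 at the lowest, median and highest in Sahiwal. The groups did not overlap, and the Sahiwal animal nearest to the Ladakhi values was animal 4. The difference was 1.43 (SE 0.30, adjusted p = 0.00216), 2.70-fold higher in Ladakhi. The probes that overlap it did not pass. A_73_P165502 gave 0.14 (SE 0.39, adjusted p = 0.795), with -1.61, -0.82, -0.99, -0.22 and 0.55 in Ladakhi, which covered the Sahiwal range. A_73_P062706 gave 0.11 (SE 0.68, adjusted p = 0.91), with 0.17, -0.42, -4.08, 0.56 and 0.48 in Ladakhi and -1.38, -0.85 and -0.02 at the lowest, median and highest in Sahiwal. Ladakhi animal 3 alone was below the Sahiwal range at this probe, and without it the difference was 0.97 (adjusted p = 0.0313). The sign of its difference turned without any 1 of Ladakhi animals 1, 4 and 5 or Sahiwal animal 1, to values between -0.20 and -0.01, and that of A_73_P165502 turned to -0.15 without Ladakhi animal 5. A_73_P038366, the remaining H2AC14 probe measured in Sahiwal, was not well above background on any Ladakhi array.

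Canonical H2B, which pairs with H2A in the nucleosome core, held the largest differences among the probes measured in both breeds. H2BC8 at chr23:31776116-31776175 had -1.77, -0.91, -1.0, -2.74 and 0.15 in Ladakhi, and 0.36, 1.19 and 2.01 at the lowest, median and highest in Sahiwal. All Ladakhi animals lay below all Sahiwal animals, with Ladakhi animal 5 the nearest. The difference was -2.43 (SE 0.48, adjusted p = 0.00161), 5.39-fold lower in Ladakhi, and it kept its direction and passed under all 27 alternatives. Near copies were sought among histone probes only. Whether this probe also matches sequence elsewhere in the genome was not tested, so its signal is not shown to come from H2BC8 alone. H2BC21 went both ways. Its probe A_73_P052566 had -0.64, -2.36, -1.13, -1.02 and -0.57 in Ladakhi, and -4.54, -3.83 and -1.79 at the lowest, median and highest in Sahiwal. Only Sahiwal animal 4, the highest, reached into the Ladakhi range, past Ladakhi animal 2. The difference was 2.36 (SE 0.48, adjusted p = 0.00198), 5.12-fold higher in Ladakhi. The Sahiwal mean of this probe, -3.50 with animal 4 included, was just above the mean Ladakhi limit of -3.67, but its Sahiwal median was under it.

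The H2BC21 probe A_73_104621, at chr3:22266031-22266090 and with no near copy, was lower in Ladakhi. It had -2.58, -2.30, -6.46, -2.20 and -2.36 there, with animal 3 not well above background, and -1.93, -1.17 and -0.47 at the lowest, median and highest in Sahiwal. The groups did not overlap. The difference was -1.97 (SE 0.66, adjusted p = 0.0269), and it missed the threshold without Sahiwal animal 2 (-1.88, adjusted p = 0.0506), without Sahiwal animal 6 (-1.82, adjusted p = 0.053) and without Sahiwal animals 4 and 6 together (-1.72, adjusted p = 0.0972), and also with quantile normalization (-2.02, adjusted p = 0.125) and cyclic loess (-1.51, adjusted p = 0.144). It passed at -1.15 (adjusted p = 0.0137) without Ladakhi animal 3 and at -1.08 (adjusted p = 0.0197) with normexp. The remaining H2BC21 probe measured in Sahiwal, A_73_P192492, was above background on 1 Ladakhi array.

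The other H2B probes measured in both breeds had Sahiwal means under the Ladakhi limit, so that they could be measured there only if higher in Ladakhi. LOC523702 (A_73_P493458) had -2.11, -2.85, -2.94, -1.88 and -1.93 in Ladakhi, and -5.07, -4.24 and -2.52 at the lowest, median and highest in Sahiwal. Here too Sahiwal animal 4 was the only one within the Ladakhi range, and the difference was 1.69 (SE 0.43, adjusted p = 0.0067). H2B A_73_P059721 had -2.52, -3.96, -3.76, -2.30 and -2.27 in Ladakhi, with animal 2 not well above background, against -5.40, -4.74 and -2.64 at the lowest, median and highest in Sahiwal. Its difference of 1.51 (SE 0.50, adjusted p = 0.0256) lost the call without any 1 of Ladakhi animals 1, 4 and 5 or Sahiwal animals 1, 2 and 3, with differences from 1.33 to 1.40 and adjusted p from 0.0513 to 0.0618. ENSBTAT00000046019 (A_73_P492128) differed by 1.52 (SE 0.66, adjusted p = 0.0786) and did not pass. Its Ladakhi animal 5 was not well above background at -5.12, and it passed without that animal (2.19, adjusted p = 0.00516), without Sahiwal animal 4 (1.90, adjusted p = 0.0297) and without Sahiwal animals 4 and 6 together (2.16, adjusted p = 0.0236).

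H3C13, a canonical H3 gene, was lower in Ladakhi at A_73_P092536. The levels were -3.04, -1.70, -1.44, -0.79 and -0.85 in Ladakhi and -0.73, -0.38 and 0.18 at the lowest, median and highest in Sahiwal. The groups did not overlap, with a narrow gap, and the difference was -1.25 (SE 0.38, adjusted p = 0.0174). It was -0.68 (adjusted p = 0.0336) with normexp, and missed the threshold with quantile normalization (-1.02, adjusted p = 0.0527) and cyclic loess (-0.79, adjusted p = 0.157). The probe that differs from it at 1 of 50 shared bases, A_73_P094811, went the other way. It lay above background on 3 Ladakhi arrays, with -4.03 and -4.82 not well above it in animals 1 and 2 and -3.55, -1.93 and -1.98 in animals 3 to 5. Sahiwal had -6.55, -6.22 and -4.13 at the lowest, median and highest. The fitted difference was 2.51 (SE 0.57, adjusted p = 0.0035), and its Sahiwal mean was under the Ladakhi limit. H4C4, a canonical H4 gene, had a probe of the same kind, A_73_P062746, with -1.0, -1.73 and -2.19 in Ladakhi animals 1 to 3, -4.54 and -4.12 not well above background in animals 4 and 5, and -5.24, -4.56 and -2.89 at the lowest, median and highest in Sahiwal. The fitted difference was 1.68 (SE 0.61, adjusted p = 0.039). The other H4C4 probe measured in Sahiwal, A_73_P403681, was not well above background on any Ladakhi array.

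**Figure D2:**
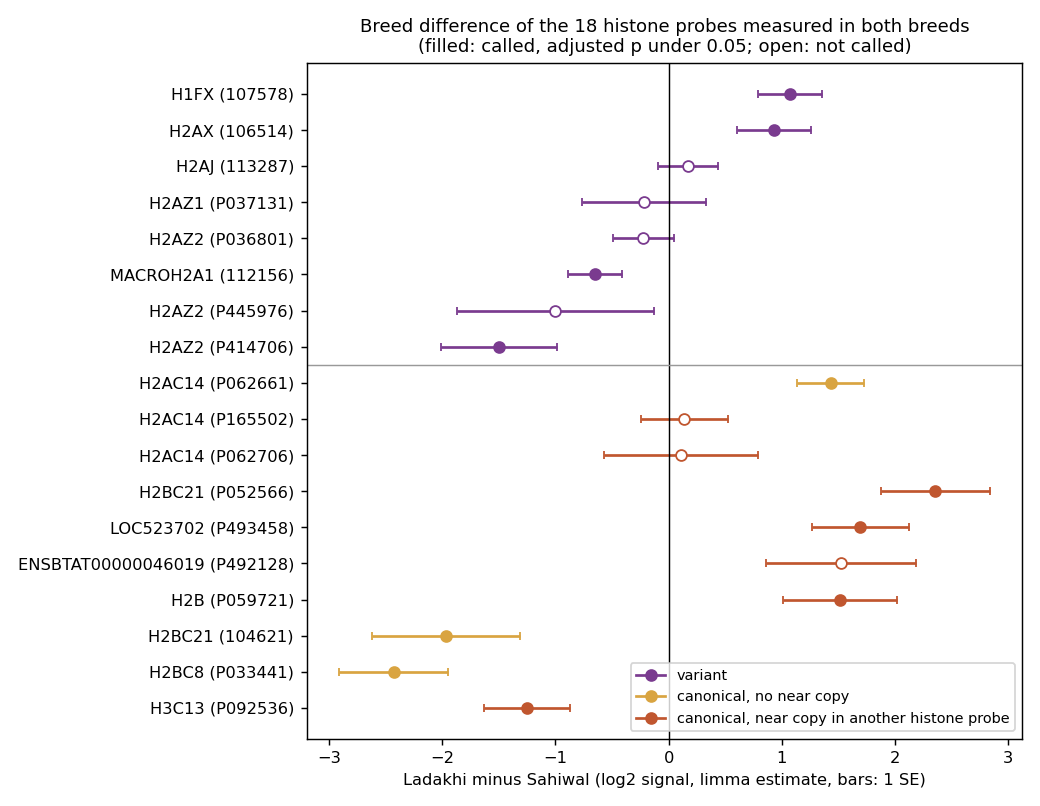
Ladakhi minus Sahiwal difference in log2 signal (x axis, limma estimate with bars of 1 SE) of the 18 histone probes measured in both breeds. Filled points passed an adjusted p of 0.05 and open points did not, and colours part variants, canonical probes without a near copy and canonical probes with one. The differences run from -2.43 for H2BC8 to 2.36 for H2BC21 A_73_P052566, and the H2BC21 and H2AC14 probes do not move as 1 gene.

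Canonical probes with a near copy and those without are set side by side here as a description. Of the 7 canonical probes with a near copy that were measured in both breeds, 3 were higher in Ladakhi and 1 was lower. Their median difference was 1.51. Among these 7, LOC523702, H2B A_73_P059721 and ENSBTAT00000046019 had Sahiwal means under the Ladakhi limit. They could be measured there only if higher, so the filter raised this median. For H2BC21 A_73_P052566 the Sahiwal mean was above that limit, but the Sahiwal median of -3.83 was not. Of the 3 without a near copy, 1 was higher and 2 were lower, with a median of -1.97. H2BC8 is among these 3, and matches outside the histone probes were not sought. Because the dim Ladakhi arrays select probes, the breed comparison was repeated without this split. It used the 19 members whose Sahiwal mean lay above the mean Ladakhi limit. Of these, 15 were measured in Ladakhi too, against 58.4% of all such probes. After signals not well above background on any array were raised to that array's detection limit, 6 were lower in Ladakhi and 4 higher, against 25.4% and 10.3% of all such probes, and the median difference was -0.22, against -0.25 over all.

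Levels of canonical histones varied widely among the Sahiwal animals and those of variants varied less. The median SD over the 6 animals was 0.90 in the 37 canonical probes measured there, 0.33 in the 16 variant probes and 0.50 over all measured probes. Animal 4, singled out after its values were seen, was the highest of the 6 in 25 of the 37 canonical probes (67.6%), in 1 of the 16 variant probes and in 12.4% of all probes. It lay at least 1 above the median of the other 5 in 22 of the 37 canonical and 0 of the 16 variant probes, against 6.4% of all. Its median distance from them was 1.80 in canonical probes, -0.19 in variant probes and -0.03 over all. With normexp these were 0.81, -0.27 and -0.22. By family, it was highest in 15 of 20 canonical H2B probes, 7 of 10 of H2A, 1 of 3 of H1, 1 of 2 of H3 and 1 of 2 of H4. H2BC12 was at -2.95 in animal 4 and between -6.88 and -5.07 in the other 5, and LOC520044 at -3.86 against -7.29 to -5.78. H2BC21 A_73_P052566 was at -1.79 against -4.54 to -2.84.

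Animal 6 was raised less. The median deviation of the 37 canonical probes from the median of the 6 animals was 1.18 in animal 4, 0.63 in animal 6 and between -0.34 and -0.06 in the other 4, while in the variants it lay between -0.15 and 0.16 in every animal. H1-2, a canonical linker histone, was high in both, at -3.96 in animal 4 and -3.16 in animal 6, and lay between -8.54 and -6.67 in the other 4. H2BC8, the largest lower call in Ladakhi, was not among the raised probes, at 0.73 in animal 4 and 1.65 in animal 6 within a range of 0.36 to 2.01. H3C13 A_73_P092536 was at -0.48 in animal 4, inside its range. Without animal 4 the median SD of the canonical probes was 0.56, and without animals 4 and 6 it was 0.39, against 0.36 for the variants and 0.47 for all probes.

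**Figure D3:**
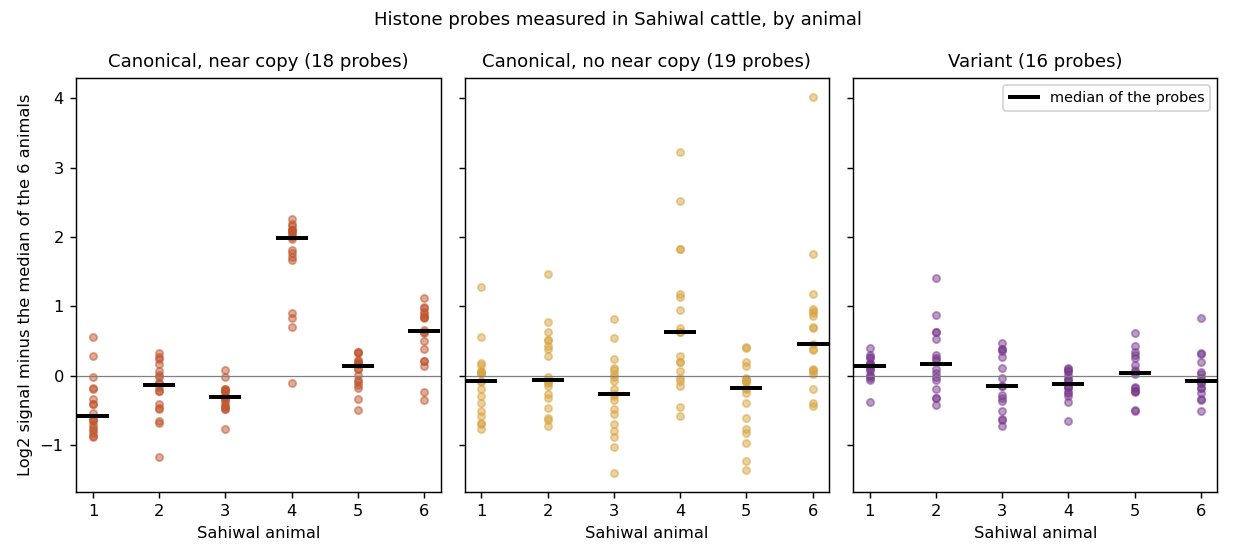
Log2 signal of each histone probe measured in Sahiwal minus the median of the 6 animals (y axis), by animal (x axis), for 18 canonical probes with a near copy, 19 without and 16 variant probes. Each point is a probe and the bar is the median of the probes. Animal 4 has its median at 1.99 in the first panel and 0.63 in the second, while the variant medians lie between -0.15 and 0.16.

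The raised level in animal 4 was seen mostly in the probes with a near copy. It was highest in 17 of 18 of these, with a median distance of 2.11 from the other 5, and in 8 of 19 without one, with a median of 0.69. Probes with near copies share sequence and are not independent of each other. Without animal 6 it was highest of 5 in 28 of 37 canonical probes, against 19.0% of all. Among the 4 animals of its own slide it was highest in 26 of 37, against 16.7%. Probes that the rule left out because their description writes Histone with a capital letter, 19 in all, had 9 measured in Sahiwal. Animal 4 was highest in all 9, with a median distance of 2.16. In the 8 probes for the group of the replacement histone H3.3 (H3-3A, H3-3B and H3-5), also outside the rule, it was highest in 0, with a median of -0.63.

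Granulocyte genes moved with these animals. The summed level of 9 granulocyte markers was 0.82 in animal 4 and 1.05 in animal 6, between -3.72 and -2.88 in the other Sahiwal animals, and between -3.25 and -1.58 in Ladakhi, where 0 or 1 of the 9 lay above background. CXCR2, a chemokine receptor of neutrophils, was at -1.33 and -1.81 in animals 4 and 6 and at or under -10.01, not well above background, in the other 4. CSF3R, the receptor of granulocyte colony-stimulating factor, was at 0.27 and 0.69 against -4.54 to -3.60, and CAMP was at background in every animal. MMP9 and CATHL1 were higher in animals 4 and 6 than in the other 4, but LTF and CATHL2 were not. LTF was highest in animal 3, at -5.10 against -6.35 and -6.41 in animals 4 and 6, and CATHL2 in animal 1, at -5.77 against -7.33 and -6.06. The granule enzymes MPO and ELANE were at -5.11 and -5.58 in animal 4 and at -4.37 and -4.55 in animal 6. T cell markers were lowest in animal 4, with a summed level of -0.39 over 6 measured genes against 0.43 to 1.1 in the other Sahiwal animals. Genes of DNA replication did not follow the histones in animal 4, which had a summed S phase level of 1.14 within the Sahiwal range of 0.74 to 1.74 and was highest in 1 of 16 such genes. The part of granulocytes in the histone levels was not tested. Without animals 4 and 6 the breed comparison called 8 of the 18 probes, 6 higher and 2 lower in Ladakhi, against 14.3% higher and 10.5% lower of all measured probes.

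**Figure D4:**
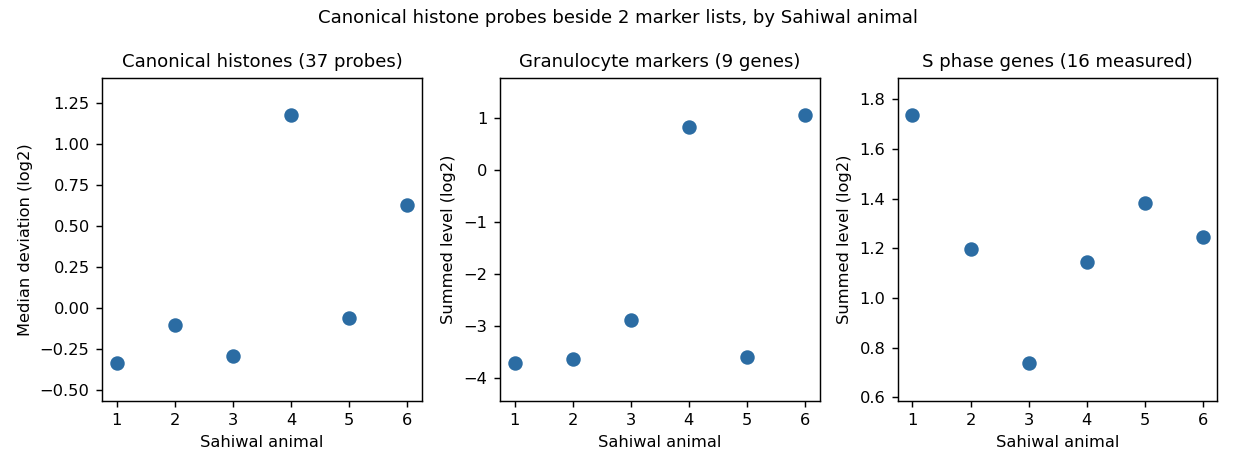
For each Sahiwal animal (x axis), the median deviation of 37 canonical histone probes (left, log2), the summed level of 9 granulocyte markers (middle, log2) and the summed level of 16 S phase genes (right, log2), 1 point per animal. Animals 4 and 6 are the highest in the left panel, at 1.18 and 0.63, and in the middle panel, at 0.82 and 1.05, and neither is highest on the right.

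Other cell type markers measured in both breeds give the setting of the breed comparison. Of 3 such T cell markers 1 was higher in Ladakhi, of 3 B cell markers 2 were higher, and of 3 monocyte markers 2 were lower, with median differences of 1.07, 1.0 and -1.27. Over all probes measured in both breeds 17.9% were higher and 15.1% lower. The lists hold 8 T cell, 6 B cell and 6 monocyte genes, and the rest of them were not measured in both breeds. Of the red cell and platelet markers 1 each was measured in both breeds and did not pass, and no granulocyte or endothelial marker was measured in Ladakhi. The part of cell makeup in the histone differences was not tested.

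Genes that process histone messages and carry or place histones were mostly out of reach on the Ladakhi arrays. Of 39 listed names 31 were on the array, 30 were measured in Sahiwal and 10 in both breeds, of which 2 were higher in Ladakhi and 1 lower, with a median difference of 0.08. These 3 of 10 lie near the 33% called of all probes measured in both. VPS72, a subunit of the complexes that deposit H2A.Z, was higher by 1.34 (SE 0.28, adjusted p = 0.00217), and ANP32B, an acidic histone chaperone, by 1.16 (SE 0.30, adjusted p = 0.00728). Their Sahiwal means of -4.03 and -4.30 were under the Ladakhi limit, so that both could be measured there only if higher. ANP32A, its close relative, was lower, with a difference of -1.61 (SE 0.30, adjusted p = 0.00104). SLBP, which binds the stem-loop of canonical histone messages, lay above background on 1 Ladakhi array, and DAXX, a chaperone of H3.3, on none, at least 1.58-fold lower there. Of the S phase list 17 of 20 genes were on the array and 7 were measured in both breeds. Limma called 0 of these 7 and none had an unadjusted p under 0.05, with a median difference of 0.15, against the same 33% called of all. The largest differences were -0.69 for MCM5 (SE 0.36, adjusted p = 0.139), 0.54 for TK1 (SE 0.31, adjusted p = 0.175) and 0.33 for MCM4 (SE 0.37, adjusted p = 0.5).

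Histone probes that the description rule left out were added as an alternative. All 8 probes of the group of H3.3, the H3 form placed outside replication, were measured in both breeds. They carry the names H3-3A, H3-3B and H3-5, and 1 of them was saturated on at least 1 array. In the main scaling 7 were lower in Ladakhi and 0 higher, against 15.1% lower and 17.9% higher of all probes. Their median difference was -1.66, and other scalings are not given for them. Of the capital-letter probes, 2 for histone H4, A_73_P061176 and A_73_P062651, were measured in both breeds and were higher in Ladakhi by 3.38 and 2.77. Their Sahiwal means of -5.17 and -4.79 were under the Ladakhi limit, so that they too could be measured there only if higher. With both sets added, 8 of 28 probes were higher and 12 lower, and the median was -0.44.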

How the data were processed

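The intensity values are Feature Extraction processed signals of 1 Cy3 channel per the file headers, background-subtracted and with surrogates for signals not above background. The headers name an Agilent scanner and version 12.0.1.1 for Ladakhi, and an Axon GenePix scanner and version 9.5.3.1 for Sahiwal. A second file the authors deposited holds log2 values, each probe centred over the arrays, whose columns match other arrays of the same breed than those they are named after, so it served only as an alternative. Its scaling between arrays is unknown, and animal numbers are those of the scanner files.

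Control spots and outlier marks were left out, spots of a probe averaged, and log2 signals scaled by the 75th percentile, per array, of the probes that all arrays detected. Limma 3.58.1 in R 4.3.3 (2-sided, Benjamini-Hochberg) was run on 17866 probes detected on at least 4 arrays of either breed. Symbols were updated by accession through the RefSeq gene table, assembly ARS-UCD2.0, for 59 members. Named are all members measured in both breeds, those measured in Sahiwal with the largest bound, disagreeing probes of a symbol and the 3 largest differences of each list; a bound above 1 existed for 1 member only. SLBP, DAXX, H4C4, A_73_P094811 and the Sahiwal examples were chosen after their values were seen, and members and lists with earlier results of these data known. On simulated data, where 50 probes each were shifted by log2 values of 0.5, 1, 2 and 4, limma found 0, 4, 31 and 49 of them and made 2 false calls. The simulated noise was normal and independent between probes, few probes were shifted, and all upward. These counts therefore do not give the recovery or the false calls of the breed comparison. The number of arrays limits the precision.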

Additional observations from a re-analysis of the deposited data

Results flagged for a closer look

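Among the 54 histone probes measured in Sahiwal and the 18 measured in Ladakhi, 7 had an animal far from the others of its breed by Dixon's criterion, which chance meets in about 1 in 20 groups. In Ladakhi these were 5 of 18 probes, all with 1 low animal. Animal 3 was at -6.46 for H2BC21 A_73_104621 and at -5.35 for H2AZ2 A_73_P414706, both not well above background, and at -4.08 for H2AC14 A_73_P062706, which was above it. Animal 1 was at -5.52 for H2AZ2 A_73_P445976 and animal 5 at -5.12 for ENSBTAT00000046019 A_73_P492128, both not well above background. In Sahiwal they were 2 of 54 probes, H2AZ1 A_73_108199 with animal 3 low at -5.86 and H2AC25 A_73_P052036 with animal 1 high at -5.40. The raised canonical probes of Sahiwal animal 4 did not meet this criterion.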

How the results depend on the processing

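For the 18 probes measured in both breeds, 416 of 480 values under the alternatives kept direction and side of the threshold, 43 lost the call, 8 gained it and 13 turned sign, each of those in a probe that was not called. Of the 11 called probes 5 kept their call under all 27 alternatives: H1FX, H2BC8, H2BC21 A_73_P052566, H2AC14 A_73_P062661 and LOC523702. LOC523702 could be measured in Ladakhi only if higher, and no alternative removes that selection. The H2BC8 signal is not shown to come from that gene alone. The count of called probes was 7 with quantile normalization and 7 with cyclic loess, and 7 to 10 with 1 animal left out (7 without Sahiwal animal 2). It was 20 of 28 with the capital-letter and H3.3 probes added, a choice made after seeing the data, as were leaving out Sahiwal animals 4 and 6 and every alternative for animal 4 and the spread. The median difference of the 18 was 0.59 with cyclic loess and between -0.16 and 0.21 with 1 animal left out. H2AZ2 A_73_P036801 turned to 0.10 with quantile normalization and 0.22 with cyclic loess. H2AZ1 A_73_P037131 turned to 0.015, 0.23, 0.66 (normexp) and 0.16 (dim signals raised) and to 0.39 without Ladakhi animal 2 (range -0.57 to 0.39 with 1 animal left out). H2AZ2 A_73_P445976 turned to 0.17 without Ladakhi animal 1 (range -1.33 to 0.17), H2AC14 A_73_P165502 to -0.15 without Ladakhi animal 5, and H2AC14 A_73_P062706 to -0.10, -0.20 and -0.17 without Ladakhi animals 1, 4 and 5 and to -0.01 without Sahiwal animal 1 (range -0.20 to 0.97). The 3 called genes of the histone supply list became 5 with quantile normalization and with cyclic loess, 6 with normexp, without a filter and with dim signals raised, 7 with slide as a random block, and 3 to 4 with 1 animal left out. The S phase count of 0 became 1 with quantile normalization and with cyclic loess, 4 with normexp, and 0 to 1 with 1 animal left out (1 without Ladakhi animal 5). Animal 4 was highest in 8 of 19 canonical probes without a near copy and in 21 to 28 of 37 under the other settings. The median SD of canonical probes was 0.56 without it and 0.39 without animals 4 and 6. The causes were not tested.

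The animal numbers did not pair the samples, since animals of the same number correlated between -0.05 and 0.02. With the number as a replicate block 9 histone probes were called, H2AX and MACROH2A1 having lost the call. Dim Ladakhi signal limits the comparison, since 36 of the 54 histone probes measured in Sahiwal were not measured in Ladakhi.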
